A study of Mus musculus with 4 samples.

Results

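Lungs of tumor-bearing mice given S100A8 were compared with lungs of tumor-bearing mice given the carrier solution alone. Both groups were female C57BL/6J mice injected orthotopically, that is in the lung itself, with LLC, a Lewis lung carcinoma cell line, and are called S100A8 + LLC and HBSS + LLC. Mouse recombinant S100A8 (10 µg) or Hank's Balanced Salt Solution (HBSS) was given into the nose on Days 3, 6 and 9 after implantation, and whole lungs were taken on Day 10. The series holds 2 other groups, HBSS + vehicle and S100A8 + vehicle, which had the same intranasal schedule but an injection without LLC cells. RNA (1.5 µg) was reverse-transcribed and measured by RT-qPCR for 98 genes and 2 housekeeping genes. The measure is the threshold cycle (Ct), the PCR cycle at which a product is first detected. An abundant transcript has a low Ct, and 1 cycle corresponds to about a 2-fold difference in template.

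All 98 panel genes were compared between 2 of the 4 groups, and the other 2 groups give the same comparison without LLC. The assays are listed by number, and each was given its gene name by matching a second deposited table, of fold changes, with the names and fold changes printed for this panel. The 2 assays without a match were taken as the housekeeping genes β-actin and β2M, and which of them is which is unknown. The authors averaged each Ct over 4 to 5 mice before deposit, so that 1 value stands for each group and assay. These values hold no replicates and give no SD, and no test could be run on them. Whether a difference exceeds the spread between mice therefore cannot be told from these averages. The study reports its own tests between mice for some genes, among them *IL-4* and *IFN-γ*. In whole lung, fewer cells of a type and less RNA per cell cannot be told apart, and LLC cells and lung cells are measured together.

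S100A8 is a small calcium-binding protein that neutrophils and other myeloid cells hold in large amounts, mostly together with its partner S100A9. It is released in inflammation, is readily oxidised, and can act on other cells. Growing lung cancers draw in myeloid cells, and cytokines such as IL-4 and IFN-γ, the metabolism of arginine and tryptophan, and the balance of oxidants all set how these cells act on T cells.

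Differences are given on the log2 scale as S100A8 + LLC minus HBSS + LLC, after subtraction of the mean Ct of both housekeeping assays, and folds are the same values as ratios. In what follows, pairs of values with HBSS and with S100A8 are from lungs with LLC unless stated. The first housekeeping assay came up at 15.35 cycles with HBSS and 15.82 with S100A8. For the second these values were 20.56 and 22.75. Both were therefore detected later in S100A8 + LLC, by 0.47 cycles and 2.19 cycles, and they disagree by 1.72 cycles, or 3.29-fold. The first assay alone moves the log2 difference of every gene down by 0.86 and the second alone moves it up by 0.86. The genes past 2-fold are therefore also given with an assay alone.

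With S100A8, *IL-12β*, *IL-4*, *HIF-1α*, *CAT2*, *IFN-γ* and *IDO* were lower, and *KRT14*, *GPX1*, *SOD1*, *MMP-10* and *S100A4* were higher, by more than 2-fold with each housekeeping assay alone. These are 6 genes lower (6.12% of the panel) and 5 genes higher (5.10%). With the mean of both assays, 15 genes (15.3%) were more than 2-fold lower and 11 genes (11.2%) more than 2-fold higher, while 72 were within 2-fold. The median over the 98 genes was -0.055 and the quartiles were -0.70 and 0.41. The side of 0 on which a gene lay was the same with both housekeeping assays for 33 genes, 20 lower and 13 higher, and depended on the assay for the other 65. The ranked plot shows how wide this range is beside the differences themselves.

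**Figure D1:**
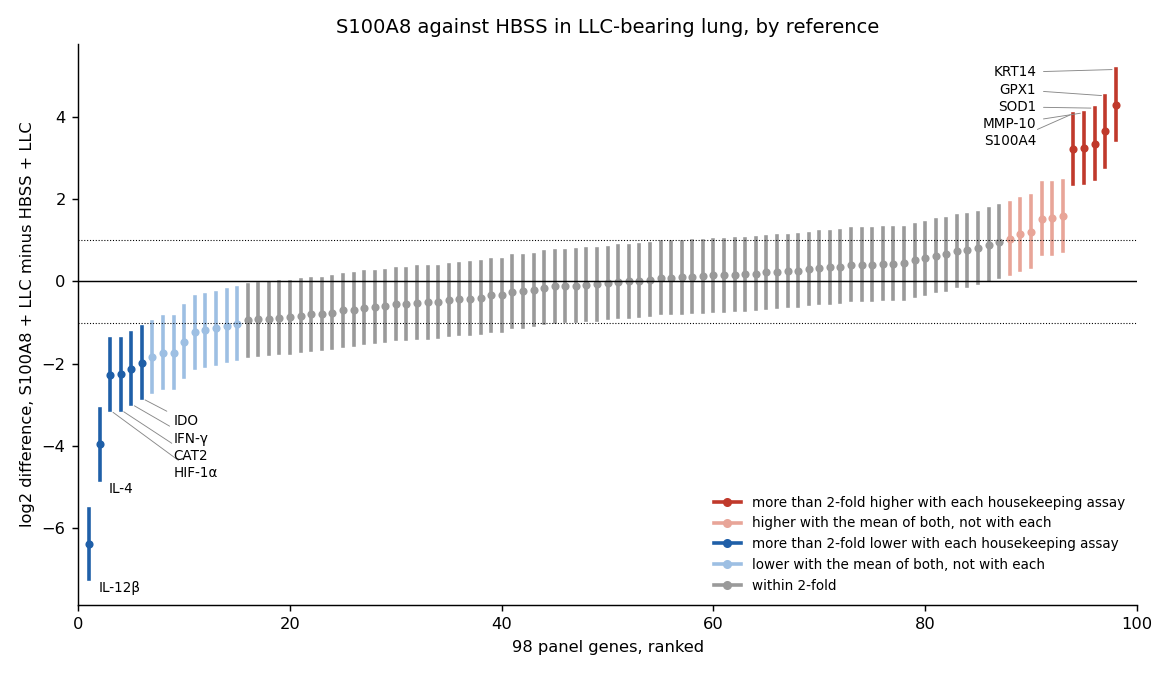
Log2 difference of each of the 98 panel genes, S100A8 + LLC minus HBSS + LLC, ranked from lowest to highest. Points use the mean of both housekeeping assays, each bar runs from the value with the first assay alone (lower end) to that with the second alone (upper end), and dotted lines mark 2-fold. The bars of the 11 named genes lie wholly past 2-fold, from *IL-12β* at -6.38 to *KRT14* at 4.29, while most grey bars cross 0.

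Before any reference was subtracted, 90 of the 98 genes had a higher Ct in S100A8 + LLC than in HBSS + LLC, and the median Ct difference was 1.38 cycles. The 8 genes with a lower Ct were *KRT14*, *GPX1*, *SOD1*, *MMP-10*, *S100A4*, *HIF-1β*, *G-CSF* and *IL-13*. No gene was at the cut off of 38 cycles in either LLC group, and the highest Ct was 36.84. Above 30 cycles, where few molecules are detected, 11 of 17 genes were past 2-fold and the median size of the log2 difference was 1.52. At 30 cycles or less in both groups, 15 of 81 genes were past 2-fold and the median size was 0.44.

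**Figure D2:**
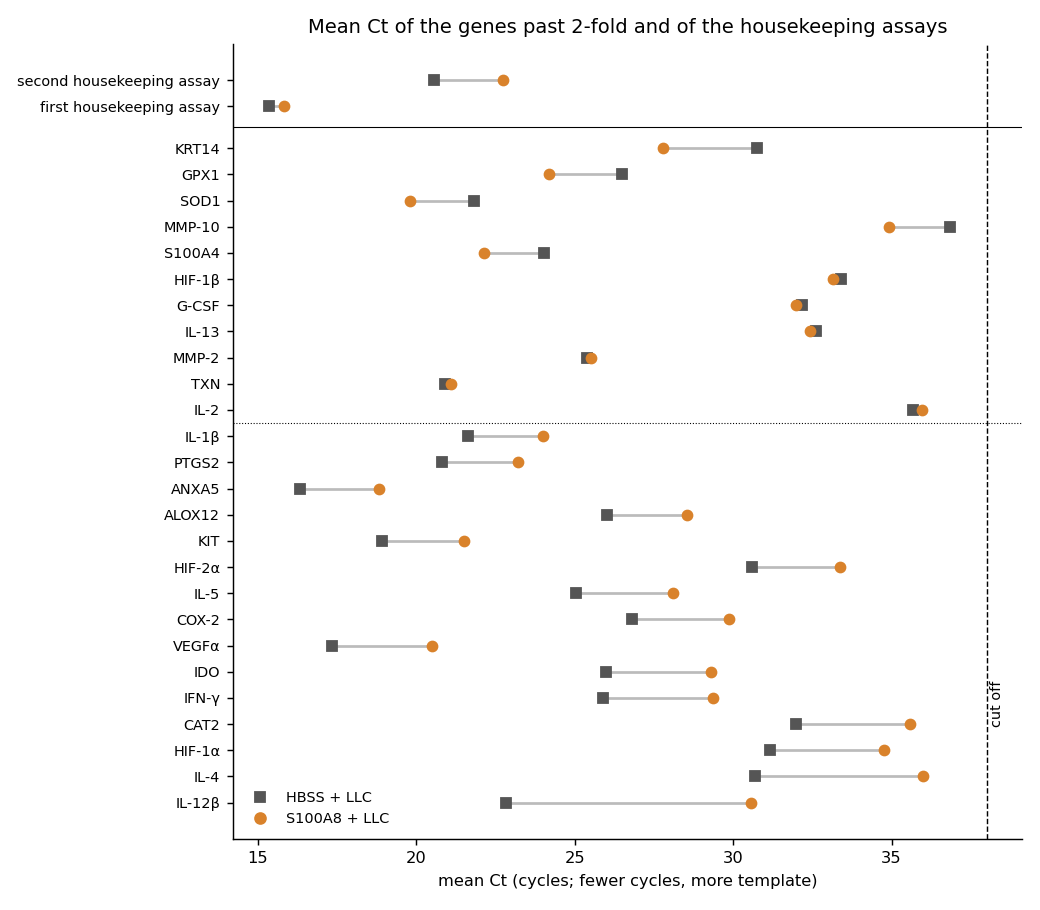
Mean Ct (cycles) in HBSS + LLC (squares) and S100A8 + LLC (circles) for the 26 genes more than 2-fold apart and for both housekeeping assays, with a dashed line at the cut off of 38 cycles. Genes above the dotted line are the 11 higher ones, and those under it the 15 lower ones. *IL-12β* has the longest bar, from 22.84 to 30.55 cycles, and *IL-4*, *CAT2*, *MMP-10* and *IL-2* reach past 35 cycles.

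Lung transcripts on the panel were checked first. *RAGE*, the receptor that alveolar type I cells express strongly, was detected at 16.91 cycles with HBSS and 18.07 with S100A8. A further assay named *AGER*, the same mouse gene, was detected at 16.46 and 17.90 cycles. *CAV1*, which encodes caveolin-1 and is abundant in alveolar and endothelial cells, was detected at 14.95 and 17.16 cycles. All 3 assays of these lung genes were detected before 20 cycles in both groups. Log2 differences were 0.17 for *RAGE*, -0.11 for *AGER* and -0.88 for *CAV1*. *CDH1* (E-cadherin) differed by -0.45 and *MUC1*, of the epithelial surface, by -0.34. The panel holds no transcript particular to LLC cells, so the share of carcinoma RNA in each group was not measured. *MKI67*, a marker of dividing cells, was detected at 23.44 cycles with HBSS and 24.52 with S100A8, a log2 difference of 0.25.

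Among the 23 genes of the cytokine lists, 5 were more than 2-fold lower in S100A8 + LLC, 3 were more than 2-fold higher and 15 were within 2-fold. The lower genes are 21.7% of these lists and 15.3% of the panel, and the higher genes 13.0% and 11.2%, so that neither share is far from that of all 98 genes. The lower genes were *IL-12β* and *IFN-γ* of the type 1 axis, *IL-4* and *IL-5* of the type 2 axis, and *IL-1β*. Of these, *IL-12β*, *IL-4* and *IFN-γ* passed 2-fold with each housekeeping assay. Their promoters are shown because these cytokine genes had the lowest values of the cytokine lists, in bases 250 to 1 before the start site, from RefSeq (mouse GRCm38.p6), with every match to 6 searched motifs in capitals. *IL-12β* (Il12b) lies on the plus strand at chr11:44399813-44400062, *IL-4* (Il4) on the minus strand at chr11:53618666-53618915, for the more upstream of 2 listed starts, and *IFN-γ* (Ifng) on the plus strand at chr10:118440796-118441045.
Il12b: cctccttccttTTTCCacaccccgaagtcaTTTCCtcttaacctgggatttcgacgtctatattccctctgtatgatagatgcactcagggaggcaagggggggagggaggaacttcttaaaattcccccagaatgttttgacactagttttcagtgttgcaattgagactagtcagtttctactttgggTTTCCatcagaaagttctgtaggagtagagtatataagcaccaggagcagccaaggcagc
Il4: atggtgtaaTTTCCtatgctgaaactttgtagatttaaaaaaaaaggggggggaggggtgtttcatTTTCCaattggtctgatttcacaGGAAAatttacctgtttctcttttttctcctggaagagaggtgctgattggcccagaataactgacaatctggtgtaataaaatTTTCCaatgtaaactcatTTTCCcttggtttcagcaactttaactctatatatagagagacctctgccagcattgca
Ifng: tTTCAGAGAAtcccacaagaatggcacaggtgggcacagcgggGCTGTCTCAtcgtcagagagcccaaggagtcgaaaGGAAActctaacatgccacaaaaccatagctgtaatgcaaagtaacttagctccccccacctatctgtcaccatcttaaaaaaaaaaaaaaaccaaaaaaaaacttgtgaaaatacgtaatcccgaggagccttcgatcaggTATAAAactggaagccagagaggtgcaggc

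The motifs were read on both strands. TATAAA is the TATA box, and GGAAA is the core bound by NFAT, a T cell factor, chosen after these sequences were seen. TTCNNNGAA is the STAT site and TGANTCA that of AP-1. ACGTG is the core of the hypoxia response element, and TGANNNNGC that of the antioxidant response element. GGAAA or its reverse complement occurred 3 times before *IL-12β*, 5 times before *IL-4* and 1 time before *IFN-γ*. It occurs in 55.6% of the 32851 promoters of the same length in the table, so its presence alone sets none of them apart. The *IFN-γ* promoter also held TATAAA at -30 (12.4% of promoters), TTCNNNGAA at -249 (7.02%) and TGANNNNGC at -207 (35.2%). A match is a description of letters and not evidence that a factor binds there.

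*IL-12β*, the p40 subunit that IL-12 and IL-23 share, came up at 22.84 cycles with HBSS and 30.55 with S100A8. It was 83.3-fold lower with S100A8, the lowest log2 difference of the panel at -6.38, and 151-fold or 45.9-fold lower with the first or second housekeeping assay alone. *IFN-γ*, the type 1 cytokine made by T cells and NK cells, came up at 25.91 and 29.36 cycles and was 4.35-fold lower (7.89-fold or 2.39-fold). The other members of the type 1 axis were within 2-fold with the mean of both assays. *IL-18*, a cytokine that induces IFN-γ, differed by -0.87. *CXCL-9* and *CXCL-10*, chemokines that IFN-γ induces, differed by -0.70 and -0.69. *IL-23*, detected at 31.97 and 32.56 cycles, was the 1 member above 0, at 0.74. The median of the 6 genes was -0.785, against -0.055 for the panel, and it lay between -1.645 and 0.075 over the housekeeping assays.

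*IL-4*, the cytokine that directs type 2 responses, was detected at 30.69 cycles with HBSS and 35.98 with S100A8. With S100A8 this was 15.6-fold lower, and 28.2-fold or 8.57-fold lower with the first or second housekeeping assay alone. With Ct values limited to 35 cycles, its log2 difference was -2.98 in place of -3.96. *IL-5*, which supports eosinophils, had a Ct of 25.05 and 28.11, and was 3.32-fold lower, or 1.83-fold with the second assay alone. *IL-13*, which shares a receptor chain with IL-4, went the other way. Its Ct was 32.63 and 32.44, a difference of -0.19 cycles, and relative to the housekeeping assays it was 2.87-fold higher, or 1.58-fold with the first alone. The eosinophil chemokine *CCL-11* differed by 0.15 and the assay named *CCL-13* by 0.34, so that the 5 members of the type 2 axis spanned -3.96 to 1.52.

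Of the innate inflammatory cytokines, *IL-1β* was detected at 21.64 cycles with HBSS and 24.00 with S100A8. It was 2.04-fold lower, just past the threshold, and 1.13-fold lower with the second housekeeping assay alone. The other 5 members were within 2-fold with the mean of both assays. *IL-6* had a Ct of 26.36 and 28.29 and differed by -0.60. *TNF-α* differed by 0.09, *MIF*, the macrophage migration inhibitory factor, by 0.15, *IL-17β* by 0.26 and *SAA3*, an acute phase protein that S100A8 is known to induce, by 0.43. Each of these 5 changed side of 0 between the housekeeping assays.

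Among the regulatory and growth cytokines, 2 of 6 were more than 2-fold higher, against 11.2% of the panel. *G-CSF*, the growth factor of neutrophils, had a Ct of 32.19 with HBSS and 31.99 with S100A8, and was 2.89-fold higher, or 1.59-fold with the first housekeeping assay alone. *IL-2*, the T cell growth factor, had a Ct of 35.68 and 35.97 and was 2.06-fold higher, or 1.13-fold with the first assay alone. Both were detected late, and their Ct differed between the groups by 0.29 cycles or less. *IL-10*, an inhibitor of inflammatory cytokines, had a Ct of 29.25 and 31.20 and differed by -0.62. *GM-CSF* differed by -0.43, *M-CSF* by -0.01 and *TGF-β1* by 0.16. *LCK*, the kinase of T cells, differed by 0.51, from 22.79 to 23.61 cycles.

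**Figure D3:**
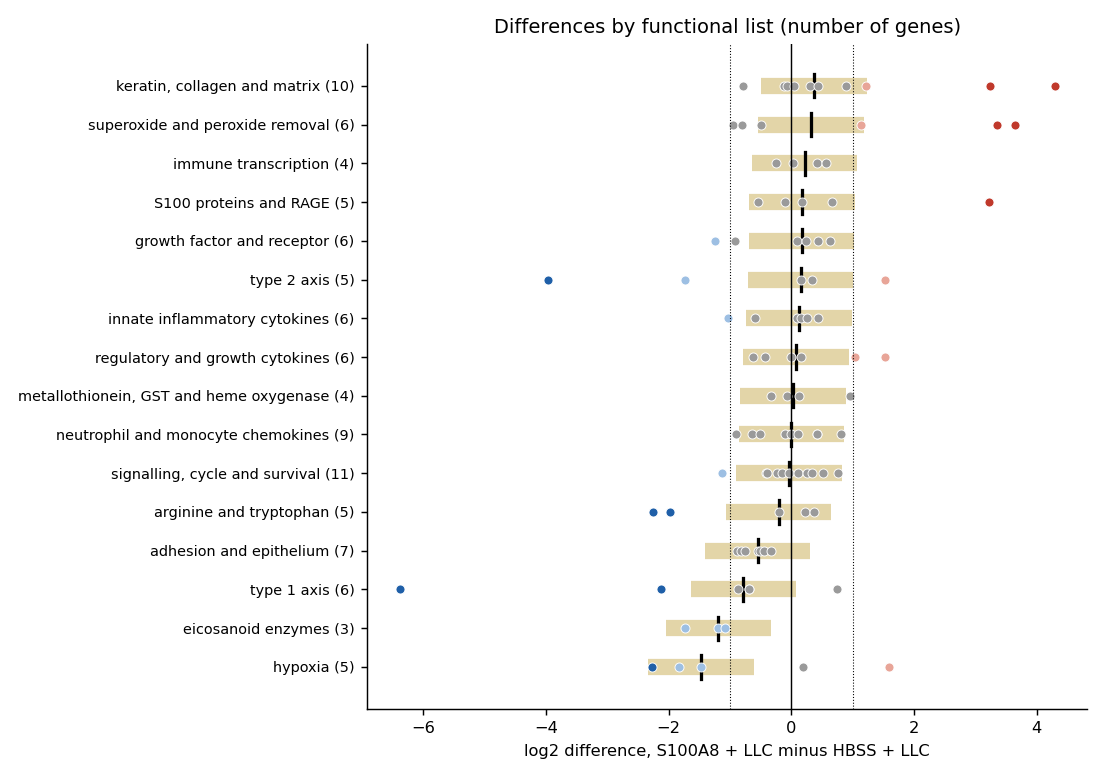
Log2 differences (S100A8 + LLC minus HBSS + LLC) of the 98 genes by functional list, with the number of genes in parentheses. Points are genes, dark where they pass 2-fold (dotted lines) with each housekeeping assay and light where with the mean of both and not with each. The black tick is the list's median, and the band runs from its value with the first housekeeping assay to that with the second. The bands of the hypoxia list (median -1.47) and the eicosanoid list (-1.19) do not reach 0, and the other 14 do.

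Of 5 genes of amino acid metabolism, 2 were more than 2-fold lower with S100A8, against 15.3% of the panel. *CAT2* (Slc7a2), a transporter that brings arginine into cells, was detected at 32.00 cycles with HBSS and 35.59 with S100A8. It was 4.79-fold lower, and 8.69-fold or 2.64-fold lower with the first or second housekeeping assay alone. Limited to 35 cycles, its log2 difference was -1.67 in place of -2.26. *IDO* (Ido1), which breaks down tryptophan and is induced by IFN-γ, was detected at 25.98 and 29.29 cycles and was 3.94-fold lower (7.16-fold or 2.17-fold). The enzymes that use arginine stayed within 2-fold. *ARG1* had a Ct of 25.71 and 27.25 and differed by -0.21, *ARG2* a Ct of 23.41 and 24.52 and a difference of 0.22, and *iNOS*, which makes nitric oxide, a Ct of 27.15 and 28.12 and a difference of 0.36.

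All 3 eicosanoid assays, which stand for 2 genes, were more than 2-fold lower, against 15.3% of the panel, and none was with the second housekeeping assay alone. Cyclooxygenase-2, the inducible enzyme of prostaglandin synthesis, has 2 assays on the panel under its 2 names. *COX-2* had a Ct of 26.81 with HBSS and 29.87 with S100A8, and was 3.32-fold lower. *PTGS2* had a Ct of 20.81 and 23.22, and was 2.11-fold lower. These assays of 1 gene were 6.00 cycles apart in HBSS + LLC and gave log2 differences that differ by 0.65, while *RAGE* and *AGER* differed by 0.28. Without LLC, *COX-2* and *PTGS2* were further apart, at -0.28 and -1.75, while *RAGE* and *AGER* were at 0.90 and 0.87. These pairs are the closest the data come to showing how far 2 assays of a transcript disagree. *ALOX12*, the 12-lipoxygenase, had a Ct of 26.02 and 28.54 and was 2.28-fold lower. With the second housekeeping assay alone, the 3 assays were 1.83-fold, 1.16-fold and 1.26-fold lower, all on the same side.

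Of the 5 genes of the hypoxia list, 3 were more than 2-fold lower (15.3% of the panel) and 1 was more than 2-fold higher (11.2%). *HIF-1α*, the oxygen-regulated subunit of hypoxia-inducible factor, was detected at 31.15 cycles with HBSS and 34.75 with S100A8. It was 4.82-fold lower, and 8.75-fold or 2.66-fold with the first or second housekeeping assay alone. *VEGFα*, the angiogenic factor that HIF induces, was an early assay, at 17.33 and 20.50 cycles, and was 3.58-fold lower (6.50-fold or 1.97-fold). *HIF-2α* (Epas1) had a Ct of 30.59 and 33.39 and was 2.77-fold lower (5.03-fold or 1.53-fold). *HIF-1β* (Arnt), the constant partner of both α subunits, had a Ct of 33.41 and 33.15 and was 3.01-fold higher (1.66-fold or 5.46-fold). *HIF-3α*, at 35.27 and 36.41 cycles, differed by 0.19. Of the 5 genes, the 4 HIF subunits were all detected after 30 cycles.

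Genes that make or remove superoxide and peroxide differed among themselves, with 3 of 6 more than 2-fold higher (11.2% of the panel) and none more than 2-fold lower (15.3%). *GPX1*, the glutathione peroxidase of the cytosol, was detected at 26.51 cycles with HBSS and 24.19 with S100A8. This is 12.6-fold higher, and 6.92-fold or 22.8-fold higher with the first or second housekeeping assay alone. *SOD1*, which turns superoxide into peroxide, was detected at 21.81 and 19.79 cycles and was 10.2-fold higher (5.62-fold or 18.5-fold). The promoters of these genes are shown for comparison with those of the cytokines, since these enzymes came up earlier with S100A8 while 90 of the 98 genes came up later. They are on the plus strand of the same build, at chr9:108338830-108339079 for *GPX1* and chr16:90220512-90220761 for *SOD1*, with the same motifs in capitals.
Gpx1: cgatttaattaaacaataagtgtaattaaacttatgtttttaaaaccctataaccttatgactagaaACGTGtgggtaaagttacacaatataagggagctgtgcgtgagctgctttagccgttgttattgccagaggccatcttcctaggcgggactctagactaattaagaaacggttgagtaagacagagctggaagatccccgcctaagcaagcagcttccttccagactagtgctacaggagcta
Sod1: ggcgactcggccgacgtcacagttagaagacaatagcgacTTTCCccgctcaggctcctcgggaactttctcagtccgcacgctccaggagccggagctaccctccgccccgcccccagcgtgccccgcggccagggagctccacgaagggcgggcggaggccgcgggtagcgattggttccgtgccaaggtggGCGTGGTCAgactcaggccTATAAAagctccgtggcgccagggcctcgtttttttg

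TGANNNNGC occurred before *SOD1*, at -56, and not in the *GPX1* window, which held ACGTG at -183 (16.6% of promoters). TATAAA occurred before *SOD1* at -37 and GGAAA at -210. TGANTCA (6.75%) occurred in none of the 5 windows, which says only that these letters are not in them.

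*TXN*, the thioredoxin that reduces oxidised proteins, had a Ct of 20.92 with HBSS and 21.11 with S100A8, and was 2.20-fold higher, or 1.21-fold with the first housekeeping assay alone. The other 3 members of the list were below 0 and within 2-fold with the mean of both assays. *NOX2* (Cybb), the phagocyte enzyme that makes superoxide, had a Ct of 21.70 and 23.98 and differed by -0.95, the nearest value short of the threshold on the lower side. *PRDX1*, a peroxiredoxin, had a Ct of 22.07 and 24.20 and differed by -0.80. Catalase (*CAT*) had a Ct of 19.43 and 21.26 and differed by -0.50. With the first assay alone, *NOX2*, *PRDX1* and *CAT* were more than 2-fold lower, at -1.81, -1.66 and -1.36. With the second alone they were at -0.09, 0.06 and 0.36. The 4 metallothionein, glutathione transferase and heme oxygenase assays were within 2-fold with the mean of both assays, from -0.34 for *GSTM* to 0.96 for *MT2*. *GSTM* was at -1.20 with the first assay alone, and *MT2* at 1.82 with the second alone.

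*S100A4*, which is linked to cell motility and metastasis, was detected at 24.02 cycles with HBSS and 22.13 with S100A8. This is 9.32-fold higher, and 5.13-fold or 16.9-fold higher with the first or second housekeeping assay alone. The lung's own *S100A8* mRNA, distinct from the protein that was given, had a Ct of 19.45 and 20.12, a log2 difference of 0.66. *S100A9* had a Ct of 19.19 and 21.07, a log2 difference of -0.55. These genes, which neutrophils express together, thus lay on opposite sides of 0 with the mean of both assays only. With either assay alone *S100A8* and *S100A9* lay on the same side, at -0.20 and -1.41 with the first and 1.52 and 0.31 with the second.

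*KRT14*, the keratin of basal epithelial cells, had the highest log2 difference of the panel, at 4.29. It was detected at 30.75 cycles with HBSS and 27.79 with S100A8, and was 19.6-fold higher, or 10.8-fold and 35.5-fold with the first and second housekeeping assay alone. *KRT5*, its partner keratin in basal cells, had a Ct of 28.69 and 29.13 and differed by 0.89. *MMP-10*, a matrix metalloproteinase (stromelysin 2), was detected at 36.84 and 34.93 cycles and was 9.45-fold higher (5.21-fold or 17.1-fold). With Ct values limited to 35 cycles, its log2 difference was 1.40 in place of 3.24. *MMP-2*, a gelatinase, had a Ct of 25.40 and 25.52 and was 2.31-fold higher, or 1.27-fold with the first assay alone. The other 6 genes of the keratin, collagen and matrix list were between -0.79 (*MMP-13*) and 0.43 (*MMP-9*).

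In the growth factor and receptor list, *KIT*, the receptor of mast cells and progenitors, was 2.36-fold lower, from 18.93 to 21.50 cycles, and *FGF-2* was the next lowest, at -0.92. The highest member was *EGFR*, at 0.62. Of the 11 genes of signalling, cycle and survival, *ANXA5*, which binds phosphatidylserine, was 2.20-fold lower, from 16.34 to 18.81 cycles, and the highest was *MKP1*, at 0.76. With the second housekeeping assay alone, *KIT* was 1.30-fold and *ANXA5* 1.21-fold lower. No member of 4 lists, 24 genes in all, was past 2-fold with the mean of both assays. The list of neutrophil and monocyte chemokines, 9 genes with the receptor *CXCR4* (0.41), ran from -0.91 for *CXCL-12* to 0.81 for *CCL-2*, and their median was 0.00. *CXCL-12* was at -1.77 with the first assay alone, and *CCL-2* at 1.67 with the second alone. The 4 genes of immune transcription ran from -0.25 for *NF-κB* to 0.56 for *IRF-4*. *NF-κB* was at -1.11 with the first assay alone, and *IRF-4* at 1.42 with the second alone. The 7 genes of adhesion and epithelium all lay below 0, from -0.88 for *CAV1* to -0.34 for *MUC1*. Their median was -0.55, or -1.41 and 0.31 with the first and second housekeeping assay alone. With the first alone all 7 were more than 2-fold lower, from -1.74 for *CAV1* to -1.20 for *MUC1*.

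The threshold of 2-fold does not divide the panel at a gap. Just past it on the lower side were *ANXA5* at -1.14, *PTGS2* at -1.08 and *IL-1β* at -1.03, and just short of it *NOX2* at -0.95, *FGF-2* at -0.92 and *CXCL-12* at -0.91. On the higher side, *MMP-2* at 1.21, *TXN* at 1.14 and *IL-2* at 1.04 were inside the count, and *MT2* at 0.96, *KRT5* at 0.89 and *CCL-2* at 0.81 outside it. The 6 genes that were higher with the mean of both assays and not with each, *HIF-1β*, *G-CSF*, *IL-13*, *MMP-2*, *TXN* and *IL-2*, had Ct differences from -0.26 to 0.29 cycles, so that their place rests on the Ct difference of the reference, 1.33 cycles.

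**Figure D4:**
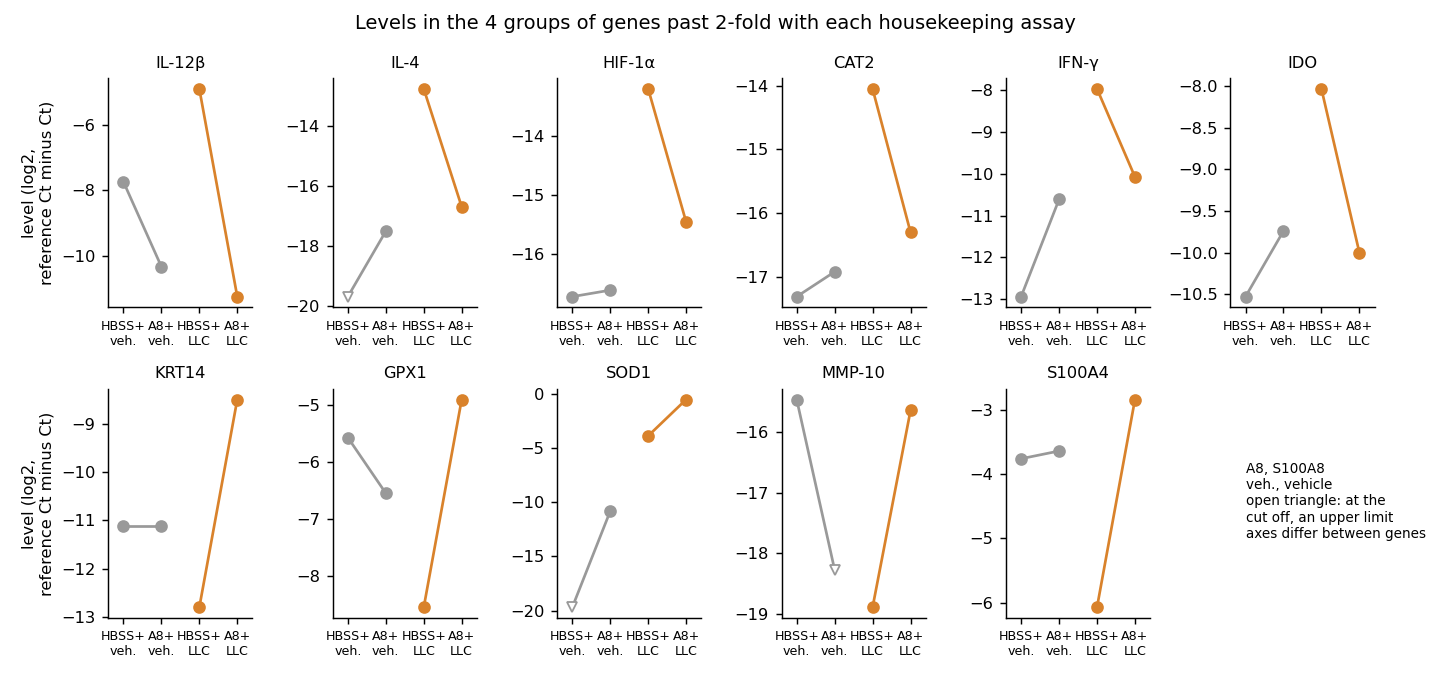
Levels (log2, mean Ct of both housekeeping assays minus the gene's Ct) of the 11 genes past 2-fold with each housekeeping assay, in lungs without LLC (grey) and with LLC (orange), 1 averaged value per group. Lines join HBSS to S100A8, open triangles are upper limits at the cut off, and axes differ between genes. *IL-12β* is lower with S100A8 in both settings, whereas *KRT14* and *S100A4* differ by more than 2-fold with LLC and not without, and HBSS + LLC has the lowest of the 4 levels.

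The same 2 intranasal treatments were also compared in lungs without LLC, where both groups are separate from those above. There, 27 of 97 genes (27.8%) passed 2-fold upward in S100A8 + vehicle relative to HBSS + vehicle, 17 (17.5%) passed it downward, and *HIF-3α* was at the cut off in both. These counts too depend on the reference. The first assay by itself gave 48 genes upward (49.5%) and 11 downward (11.3%), whereas the second gave 16 (16.5%) and 30 (30.9%). Of the 26 genes past 2-fold in lungs with LLC, 7 were past 2-fold the same way without LLC, 7 the opposite way, and 11 were within 2-fold. The place of *IL-2* is undetermined, since S100A8 + vehicle was at the cut off and the value, at most 0.33, has no lower limit. With each housekeeping assay alone and in both settings, 2 genes were past 2-fold the same way (*IL-12β* and *SOD1*) and 3 the opposite way (*IL-4*, *IFN-γ* and *MMP-10*). Values without LLC are given with the mean of both assays unless stated. The difference between the settings was not tested, since each group is 1 value.

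*IL-12β* was lower in both settings, with a log2 difference of -2.59 without LLC and -6.38 with LLC, with levels of -7.745 and -10.335 for HBSS and S100A8 without LLC and of -4.885 and -11.265 with LLC. *IL-5* was also lower in both (-2.01 and -1.73), as were *HIF-2α* (-4.15 and -1.47) and *PTGS2* (-1.75 and -1.08). The *COX-2* assay of the same gene as *PTGS2* was at -0.28 without LLC and -1.73 with LLC. It is counted among those within 2-fold without LLC, so the assays of this gene differ there. *G-CSF* was higher in both (1.19 and 1.53), and so were *TXN* (6.13 and 1.14) and *SOD1* (at least 8.89 and 3.35). *SOD1* was at the cut off in HBSS + vehicle and at 30.55 cycles in S100A8 + vehicle, and *TXN* was at 37.41 and 32.72 cycles, although both are expressed in most cells and the housekeeping assays were at 14.09 and 22.50 cycles in HBSS + vehicle. Their values without LLC rest on these late or undetected assays, and the cause of the late detection was not tested.

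*IFN-γ* went opposite ways, 2.34 without LLC and -2.12 with LLC, from Ct values of 31.24 (HBSS) and 30.34 (S100A8) without LLC, and 25.91 and 29.36 with LLC. *IL-4* did so too, at least 2.20 and -3.96, from 38 and 37.24 cycles without LLC, and 30.69 and 35.98 with LLC. In both genes, HBSS + LLC had the lowest Ct of the 4 groups. *VEGFα* (1.14 and -1.84) and *ALOX12* (1.62 and -1.19) were higher with S100A8 without LLC and lower with LLC. With the second housekeeping assay alone neither passed 2-fold in either setting, at 0.50 and -0.98 for *VEGFα* and 0.98 and -0.33 for *ALOX12*. *MMP-10* (at most -2.80 and 3.24), *HIF-1β* (-4.49 and 1.59) and *IL-13* (-2.20 and 1.52) were lower without LLC and higher with LLC. With the first assay alone, *HIF-1β* (0.73) and *IL-13* (0.66) were within 2-fold with LLC.

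**Figure D5:**
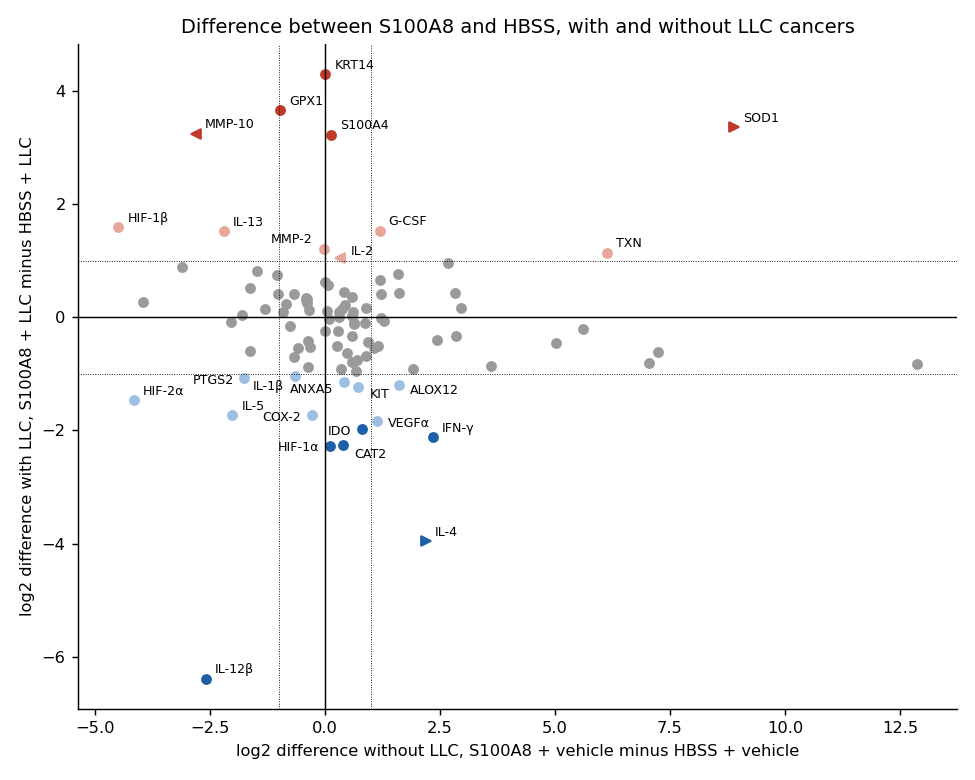
Log2 difference between S100A8 and HBSS in lungs without LLC (horizontal axis) and with LLC (vertical axis) for 97 genes, with dotted lines at 2-fold. Red and blue genes are more than 2-fold higher and lower with LLC, dark where this holds with each housekeeping assay, and triangles point the way in which a bound without LLC is open. *KRT14*, *S100A4* and *HIF-1α* lie near 0 on the horizontal axis (0.01, 0.13 and 0.12), and *IL-12β* lies in the lower left.

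*KRT14* (4.29 with LLC and 0.01 without), *S100A4* (3.22 and 0.13) and *HIF-1α* (-2.27 and 0.12) were past 2-fold with LLC and within 2-fold without, with each housekeeping assay alone. *CAT2* (-2.26 and 0.40) and *IDO* (-1.98 and 0.80) were within 2-fold without LLC by the mean of both assays, but at 1.04 and 1.44 with the first alone, past 2-fold in the opposite direction. Without LLC, *HIF-1α* (35.03 cycles with HBSS and 36.35 with S100A8) and *CAT2* (35.61 and 36.65) were detected late, so that their values there rest on few molecules. *GPX1* was at 3.65 with LLC and -0.97 without, on opposite sides of 0, and its value without LLC was -1.61 with the second assay alone. Without LLC its Ct was 23.87 with HBSS and 26.28 with S100A8, and with LLC 26.51 and 24.19, so that HBSS + LLC had the highest Ct of the 4 groups. *KRT14* came up at 29.41 and 30.84 cycles without LLC and at 30.75 and 27.79 with LLC. *S100A4* came up at 22.06 and 23.37 cycles without LLC and at 24.02 and 22.13 with LLC. Conversely, *ICAM-1*, the endothelial ligand of leukocyte integrins, *IL-10* and *PRDX1* were among the genes that differed without LLC (12.88, 7.23 and 7.04) and were within 2-fold with LLC by the mean of both assays (-0.83, -0.62 and -0.80). With the first assay alone they were more than 2-fold lower with LLC, at -1.69, -1.48 and -1.66. In each of these 3, the HBSS + vehicle group was above 30 cycles.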

How the data were processed

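Mean Ct values, a score in cycles that the authors deposited without normalization, were used for 4 groups. Per the labels and the study's methods, lung RNA was reverse-transcribed and amplified with SYBR Green, with a cut off of 38 cycles, and each Ct was averaged over 4 to 5 mice. The labels and the methods name different PCR machines. A further deposited table holds the authors' ratio of each other group to HBSS + vehicle per gene, which served only to name the numbered assays and columns (tolerance 0.1%), and none of its values is given. Depth has no meaning for Ct values, and with 1 value per group and assay precision cannot be stated.

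Differences were computed as the negative change in Ct minus the mean Ct of both housekeeping assays. A gene was called when more than 2-fold apart, and values against 38 cycles are bounds. Alternatives were each housekeeping assay alone, the panel's median Ct, no reference, limits on Ct, an amplification of 1.9 per cycle and thresholds of 1.5 and 3. Names of 94 genes matched RefSeq (GRCm38.p6). The functions were tested on simulated data. Python 3.11.15, numpy 2.4.6 and matplotlib 3.10.9 were used.

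The comparison and the 16 gene lists were chosen with earlier results of these data known. Genes named were those past 2-fold, members of the cytokine, superoxide and peroxide, and arginine and tryptophan lists, genes with 2 assays, *S100A8* and *S100A9*, the 3 genes nearest the threshold on each side, and the extremes of the other lists. Cell type markers on the panel were also named. *HIF-3α* and *ICAM-1* were named after their values were seen.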

Additional observations from a re-analysis of the deposited data

Results flagged for a closer look

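In 7 genes, S100A8 and HBSS differed by more than 2-fold one way in lungs with LLC and by more than 2-fold the other way in lungs without, by the mean of both housekeeping assays, and these differences between the settings were not tested, since each group is 1 averaged value. In lungs without LLC, 27.8% of the genes were more than 2-fold higher with S100A8 and 17.5% more than 2-fold lower. The log2 difference with LLC minus that without was 6.08 for *HIF-1β*, 6.04 or more for *MMP-10* and 3.72 for *IL-13*, which were higher with S100A8 in lungs with LLC only. It was -6.16 or lower for *IL-4*, -4.46 for *IFN-γ*, -2.98 for *VEGFα* and -2.81 for *ALOX12*, which were lower with S100A8 in lungs with LLC only. The values of *IL-4* and *MMP-10* rest on a group at the cut off of 38 cycles, and that of *HIF-1β* on a mean Ct of 37.41 in S100A8 + vehicle. With each housekeeping assay alone, 3 of the 7, *IL-4*, *IFN-γ* and *MMP-10*, were past 2-fold both ways. *VEGFα* (0.50 without LLC and -0.98 with) and *ALOX12* (0.98 and -0.33) were not with the second assay alone, and with the first alone *HIF-1β* (0.73) and *IL-13* (0.66) were within 2-fold with LLC.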

How the results depend on the processing

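With the first housekeeping assay alone, 5 genes were more than 2-fold higher and 44 lower, in place of 11 and 15, while the second alone gave 39 and 6. Under the median Ct of the panel as reference 8 were higher and 32 lower. With no reference 5 were higher and 69 lower, and *IL-2* (-0.29), *TXN* (-0.19) and *MMP-2* (-0.12) changed side. At thresholds of 1.5-fold and 3-fold, 18 and 6 genes were higher, and 29 and 9 lower. With genes at 30 cycles or less in both groups, 5 were higher and 10 lower. The counts with each housekeeping assay, 5 higher and 6 lower, became 3 and 2 at 30 cycles or less and 8 and 10 at 1.5-fold, and 2 were lower at 3-fold. Of the 26 genes, all kept their side of 0 with each housekeeping assay, and 20 and 17 stayed past 2-fold. Centring on the median Ct difference, an alternative added after the data were seen, gave 12 higher and 14 lower. With Ct values limited to 35 cycles, *IL-4* was at -2.98, *CAT2* at -1.67 and *MMP-10* at 1.40, and *IL-2* and *HIF-3α* had no value. No paired analysis was possible because each group is 1 averaged value, and for the same reason no replicate could be left out.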
